A study of Mus musculus with 6 samples.

Results

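The genes described here are 10 mouse genes for receiving and sending Wnt signals, namely the Frizzled receptor genes Fzd1, Fzd4, Fzd5, Fzd6 and Fzd7, the co-receptor genes Lrp5 and Lrp6, the receptor-like kinase gene Ryk, and the Wnt secretion genes Wls and Porcn. They were chosen by name, and all 10 were among the 21849 genes tested of 56748 gene identifiers in the count files. Their mRNA was measured by polyA RNA-seq in unstimulated bone marrow-derived dendritic cells (BMDCs), with 3 libraries from C57BL/6 WT mice and 3 from mice with a global Nfkb2-/- deletion. Nfkb2 encodes p100, the precursor of the p52 NF-κB subunit of the noncanonical pathway. Bone marrow from femur and tibia was grown for 9 days, with GM-CSF at 20 ng/mL for 5 days and then with GM-CSF at 20 ng/mL and IL-4 at 10 ng/mL for 4 days. The age of the mice and which cultures were run together are not given in the sources used here, and the deletion was present in all cells of the mouse, including bone marrow cells that are not dendritic cells. The study describes its replicates as independent biological ones.

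Wnt proteins are lipid-modified signaling molecules. Porcn attaches the lipid inside the secreting cell, and Wls carries the modified ligand to the cell surface. On the receiving cell a Wnt binds a Frizzled, a receptor that crosses the membrane several times, together with Lrp5 or Lrp6. The occupied receptors recruit Dishevelled, and β-catenin is then spared from degradation. Ryk binds Wnts outside the β-catenin branch as well. In dendritic cells, β-catenin signaling is known for its part in tolerance. The study asked how noncanonical NF-κB signaling shapes gene expression in these cells, and the comparison here asks whether the receptors and secretion genes differed between WT and Nfkb2-/- BMDCs.

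Libraries held 29863927 to 55623068 counts, so that 1 count corresponded to between 0.0187 and 0.0344 CPM, the count scaled to a common library total. Nfkb2 had 154 to 355 CPM in WT and 32.3 to 44.8 CPM in Nfkb2-/- libraries (log2 fold change -2.72, adjusted p = 0.0307, edgeR), and its log2 fold change stayed between -2.96 and -2.33 over 14 alternatives, past the threshold in 9. All 12 dendritic cell markers examined were detected in both genotypes. There were 2 libraries that stood apart. Nfkb2-/- replicate 1 had counts on 47952 identifiers against 27692 to 33841 in the others, and it was the highest library for 62.0% of the 6533 tested genes with a mean under 1 CPM. WT replicate 3 had 460 summed CPM over 12 macrophage markers, against 1971 to 4693 in the other 5 libraries. Fewer cells of a type and less RNA per cell cannot be told apart in such bulk samples.

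Frizzled proteins share a short stretch just after the last membrane span that contacts Dishevelled, with lysine, threonine and tryptophan at fixed places. Its codons are shown because this is the point where every Frizzled meets the same adaptor. They were read 5′ to 3′ on the coding strand of GRCm38, and capitals mark the lysine, threonine and tryptophan codons.
Fzd1: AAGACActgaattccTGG
Fzd4: AAAACTcttcacacgTGG
Fzd5: AAGACTctggagtctTGG
Fzd6: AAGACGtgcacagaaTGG
Fzd7: AAGACCctgcagtcaTGG
These lie in coding exons at chr5:4755706-4755723 (minus strand), chr7:89408241-89408258 (plus), chr1:64735011-64735028 (minus), chr15:39033949-39033966 (plus) and chr1:59484607-59484624 (plus). Fzd5 and Fzd7 were the closest pair and differed at 3 of 18 bases, while Fzd4 and Fzd6 differed at 11 of 18. No stretch of 50 or more identical bases was shared between any members. Fzd5 overlaps Gm38058, and Fzd6 overlaps Gm26704, both on the opposite strand. Whether counting used strand is not given in the sources used here, so reads of these pairs cannot be told apart. Gm38058 had 31 counts in Nfkb2-/- replicate 1, where Fzd5 had 237, and at most 7 in the other libraries. Gm26704 had 14 counts in Nfkb2-/- replicate 1, where Fzd6 had 65, and at most 2 in the others. Transcripts of Fzd4 and Lrp6 share stretches of 50 or more bases with 429 and 67 other genes, so a part of their reads could have been assigned ambiguously.

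None of the 10 genes passed the threshold between genotypes (adjusted p under 0.05 and fold change over 1.2, edgeR quasi-likelihood test over all genes), where 1.14% of all tested genes did. With edgeR's unadjusted p under 0.05, 3 of 10 genes passed, namely Fzd5, Wls and Fzd1, beside 17.1% of all genes. In DESeq2, run as an alternative, 1 of 10 passed at the adjusted threshold, which was Fzd5, beside 8.65% of all genes, and in limma voom 0 of 10 passed. The members' median log2 fold change was -0.12, and that of all tested genes was 0.08. Fzd5 and Lrp5 were lower in all Nfkb2-/- libraries than in any WT library, a pattern of 12.0% of all tested genes. No member was higher without overlap, which held for 12.7% of all genes.

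**Figure D1:**
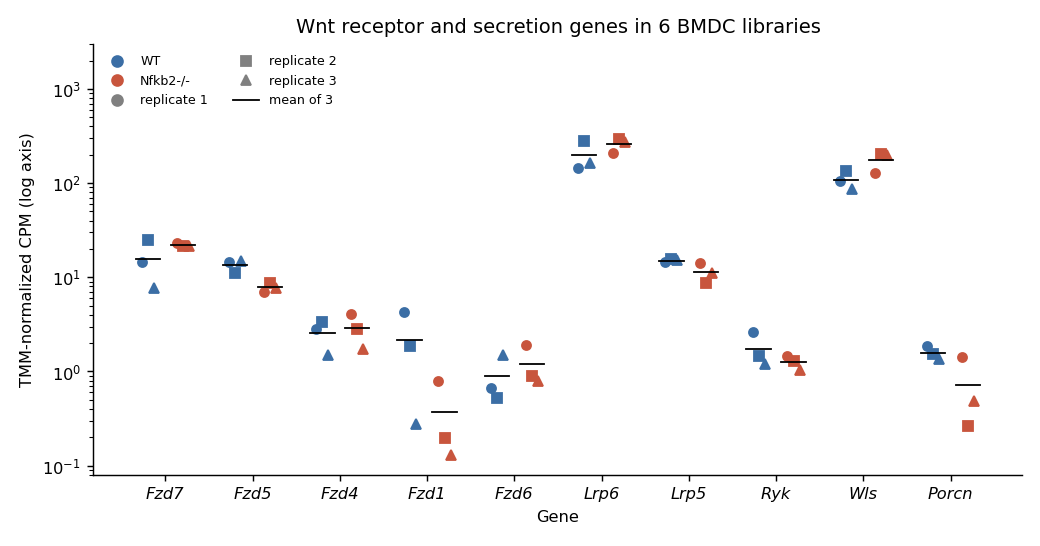
TMM-normalized CPM on a log axis for each of the 10 genes in each library, with WT in blue, Nfkb2-/- in red, a marker shape per replicate and a black line at the mean of 3. Fzd5 and Lrp5 are the genes whose genotypes do not overlap, and Lrp6 and Wls lie highest.

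Among the Frizzled genes, Fzd5, a receptor for Wnt5a among other ligands, had the lowest p-value. Its level was 14.5, 11.2 and 14.9 CPM in WT replicates 1 to 3 and 7.001, 8.80 and 7.63 CPM in Nfkb2-/- replicates 1 to 3. All knockout libraries were below all WT libraries. The means were 13.6 ± 2.02 CPM and 7.81 ± 0.913 CPM (SD, n = 3), with a log2 fold change of -0.80 ± 0.19 (SE) and an adjusted p of 0.1001 in edgeR, so the difference missed the threshold. A two-sided exact permutation test gave p = 0.1, the smallest value 3 against 3 libraries allow. Fzd5 passed in 2 of 14 alternatives, with an adjusted p of 0.00959 in DESeq2 and 0.0406 in edgeR without WT replicate 2. Its adjusted p ranged from 0.00959 to 0.344 over all 14, and the log2 fold change stayed between -0.92 and -0.71. Summed CPM of the dendritic cell markers was 6563 to 12026 in WT and 8724 to 9812 in Nfkb2-/- libraries. Cd74 was the largest part of this sum in every library, at 1870 to 3691 CPM. The summed level was therefore weighted to a few abundant markers. The sum was lowest in WT replicate 2 and highest in WT replicate 3, also the lowest and highest WT libraries for Fzd5. Nfkb2-/- replicates 1 to 3 had sums of 9046, 8724 and 9812 CPM. There the library with the lowest sum, replicate 2, had the highest Fzd5. Single markers of this list of 12 moved apart. Itgax, which encodes CD11c, was at 123 to 277 CPM in WT and 716 to 769 CPM in Nfkb2-/- libraries (log2 fold change 1.99, adjusted p = 0.0414, edgeR, past the threshold in 9 of 14 alternatives). Cd86 and Ciita were also higher without overlap and Zbtb46 lower without overlap, with adjusted p-values of 0.284, 0.254 and 0.192 in edgeR. Ccr7 had a lower mean in Nfkb2-/- libraries, with overlap (log2 fold change -0.97, adjusted p = 0.235, edgeR). The part of these cells in the Fzd5 difference was not tested.

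The promoter of Fzd5 is shown because this gene had the lowest p-value and the only match to a κB consensus among the 6 members with a RefSeq promoter of 300 bases (GRCm38.p6, from 250 bases before the start site to 50 after it), and it was picked after both were seen. The 100 bases before the start site, chr1:64737751-64737850 on the minus strand, read 5′ to 3′ as follows, with the match in capitals.
Fzd5 promoter: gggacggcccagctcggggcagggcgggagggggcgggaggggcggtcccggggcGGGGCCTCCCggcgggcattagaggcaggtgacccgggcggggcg
The match starts at base -45, and 8.46% of 32851 promoters of 300 bases hold a κB match on either strand. In all, 4 patterns were searched on both strands of the 300-base promoters. A TCF/LEF core, CTTTGA, was found in the Fzd1 promoter at base -242 and in 16.0% of all promoters. Another TCF/LEF form, CTTTGWW with A or T at each W, was found in the Fzd7 promoter and in 16.9% of all. The GC box, GGGCGG, was found in Fzd4, Fzd5, Fzd7, Ryk and Wls and in 35.7% of all. In the Fzd5 sequence shown, a GC box overlaps the first bases of the κB match. A match is a run of letters, and binding was not measured here.

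Fzd7, the Frizzled of highest level per length in both genotypes, had 14.5, 25.0 and 7.67 CPM in WT and 23.1, 21.4 and 21.4 CPM in Nfkb2-/- replicates 1 to 3. The WT libraries spread widely, with WT replicate 2 above and WT replicate 3 far below all knockout libraries. The log2 fold change was 0.48 ± 0.38 (SE) with an adjusted p of 0.563 in edgeR, and it moved to 0.98 without WT replicate 2 and to 0.16 without WT replicate 3. WT replicate 3 was also the library with few macrophage marker reads, with Csf1r, the receptor for M-CSF, at 37.2 CPM against 115 to 250 CPM in the others. WT replicate 2 was highest for both the summed macrophage markers and Fzd7. WT replicate 1 had 4542 summed CPM of these markers, against 1971 to 2860 CPM in Nfkb2-/- libraries, and less Fzd7 than any of them. Most of this sum was Lyz2, at 3436 CPM in WT replicate 1 and 1234 to 2061 CPM in Nfkb2-/- libraries. Fcgr1 and Mertk were lower in WT replicate 1 than in any Nfkb2-/- library, as Fzd7 was. Adgre1 lay within the Nfkb2-/- range there, and the other markers of the list were higher. No macrophage marker was at 0 in WT replicate 3, and the part of these cells in the Fzd7 level was not tested.

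Fzd1 showed the largest fold of the members and the least even one. It had 4.27, 1.88 and 0.275 CPM in WT replicates 1 to 3 (180, 61 and 8 counts) and 0.798, 0.198 and 0.131 CPM in Nfkb2-/- replicates 1 to 3 (27, 6 and 7 counts). WT replicate 3 lay within the knockout range. The log2 fold change was -2.53 ± 1.05 (SE), with an adjusted p of 0.277 in edgeR, and it ranged from -3.75 to -1.52 when single libraries were left out. In 1 of 13 alternatives, with no filter beyond 1 count, the adjusted p was 2.71e-04. A list of 12 stromal markers, of which 11 were tested, summed to 94.9, 25.2 and 4.54 CPM in WT and 47.9, 28.2 and 12.9 CPM in Nfkb2-/- replicates 1 to 3. Within each genotype its order was the order of Fzd1, though Nfkb2-/- replicates 2 and 3 had only 6 and 7 Fzd1 counts. Between genotypes it was not, since Nfkb2-/- replicates 1 and 2 had higher sums than WT replicate 2 but less Fzd1. Of the tested markers, Postn alone was lower in both of these libraries (1.51 and 1.05 CPM) than in WT replicate 2 (2.03 CPM). Thy1 was the 1 tested marker of the list without overlap, and it was higher in Nfkb2-/- libraries (adjusted p = 0.0708, edgeR). Lum had at most 2 counts in any library, and Col3a1 and Dcn were at 0 in WT replicate 3. The part of stromal cells in the Fzd1 values was not tested.

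**Figure D2:**
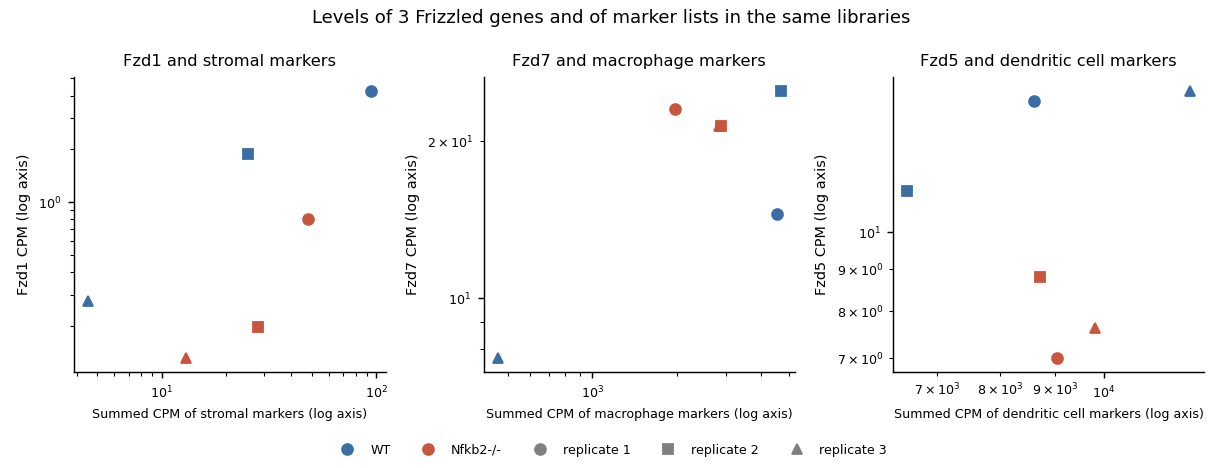
CPM of Fzd1, Fzd7 and Fzd5 against the summed CPM of stromal, macrophage and dendritic cell markers, all on log axes, with 1 point per library. The pairs were chosen after the values were seen, and WT replicate 3 lies lowest for stromal and macrophage markers.

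Fzd4, known as the receptor for norrin, had 2.82, 3.32 and 1.51 CPM in WT and 4.11, 2.83 and 1.72 CPM in Nfkb2-/- libraries. Fzd6, often described as acting outside the β-catenin branch, had 0.664, 0.523 and 1.48 CPM in WT and 1.92, 0.890 and 0.786 CPM in Nfkb2-/- libraries. For both the genotypes overlapped, with log2 fold changes of 0.17 ± 0.42 and 0.43 ± 0.58 (SE), and adjusted p-values of 0.869 and 0.744 in edgeR. Both signs depended on Nfkb2-/- replicate 1, without which the log2 fold changes were -0.18 and -0.09. Fzd4 also turned to -0.09 without WT replicate 3.

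Of the co-receptors, Lrp6 was the more abundant and Lrp5 the more even in WT. Lrp6 had 146, 280 and 165 CPM in WT and 211, 296 and 273 CPM in Nfkb2-/- replicates 1 to 3. The WT replicate 2 value lay among the knockout values, and the log2 fold change was 0.40 ± 0.27 (SE, adjusted p = 0.507, edgeR). It was 0.74 without WT replicate 2, with an adjusted p of 0.0937, and 0.22 without WT replicate 1. Lrp5 had 14.5, 15.5 and 15.1 CPM in WT and 14.3, 8.80 and 11.0005 CPM in Nfkb2-/- replicates 1 to 3. The genotypes did not overlap, but Nfkb2-/- replicate 1 came within 1 CPM of the lowest WT library. The log2 fold change of Lrp5 was -0.40 ± 0.21 (SE, adjusted p = 0.381, edgeR), and it ranged from -0.61 to -0.29 over the alternatives.

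Ryk had 2.61, 1.45 and 1.205 CPM in WT and 1.48, 1.29 and 1.03 CPM in Nfkb2-/- replicates 1 to 3. The genotypes overlapped, and the log2 fold change was -0.48 ± 0.40 (SE, adjusted p = 0.584, edgeR). Without WT replicate 1 it was -0.07.

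On the secretion side, Wls had 105, 135 and 85.8 CPM in WT and 128, 202 and 200.4 CPM in Nfkb2-/- replicates 1 to 3. Nfkb2-/- replicates 2 and 3 were above all WT libraries, while replicate 1 lay below WT replicate 2. The mean was 109 ± 24.9 CPM in WT and 177 ± 42.5 CPM in Nfkb2-/- cells (SD, n = 3), and the log2 fold change was 0.70 ± 0.25 (SE, adjusted p = 0.207, edgeR). It stayed between 0.56 and 0.89 over 14 alternatives, with adjusted p-values from 0.0925 to 0.479. Porcn had 1.87, 1.54 and 1.34 CPM in WT and 1.42, 0.264 and 0.486 CPM in Nfkb2-/- replicates 1 to 3, the latter from 48, 8 and 26 counts. Nfkb2-/- replicate 1 lay inside the WT range, and the log2 fold change was -1.13 ± 0.63 (SE, adjusted p = 0.415, edgeR). Without Nfkb2-/- replicate 1 it was -2.05, with an adjusted p of 0.0977.

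**Figure D3:**
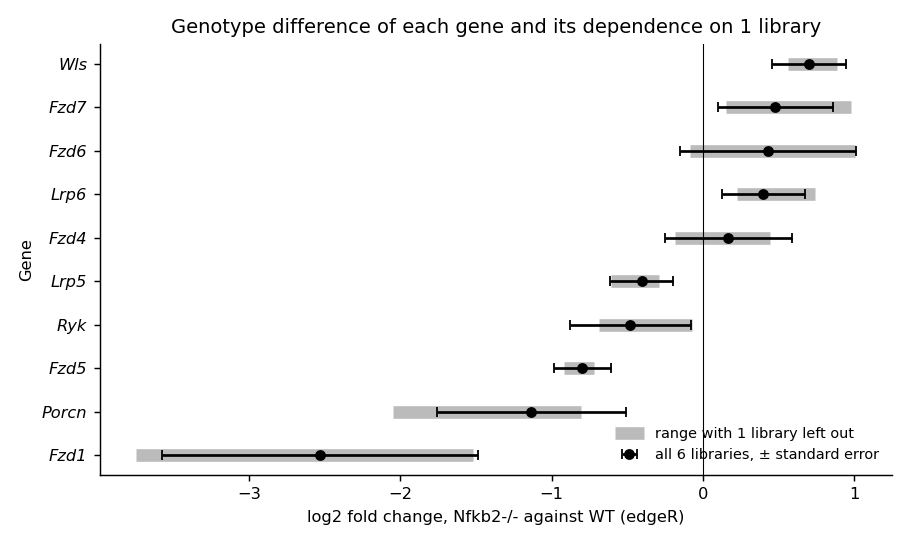
The log2 fold change of each gene in Nfkb2-/- against WT from edgeR (point) with its standard error (bar), and the range over the fits that leave out 1 library (grey). The grey ranges of Fzd4 and Fzd6 cross 0, and that of Fzd1 is the widest.

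Levels between genes were compared as CPM per kilobase of exon. In WT the order was Lrp6 (14.4), Wls (12.4), Fzd7 (3.47), Fzd5 (1.96), Lrp5 (1.54), Porcn (0.528), Fzd1 (0.510), Ryk (0.387), Fzd4 (0.380) and Fzd6 (0.185). Lrp6 and Wls overlapped in range, as did Fzd7 and Fzd5, and Porcn and the genes after it each overlapped with the next. In Nfkb2-/- libraries the order was Wls (20.1), Lrp6 (19.0), Fzd7 (4.85), Lrp5 (1.17), Fzd5 (1.13), Fzd4 (0.430), Ryk (0.279), Fzd6 (0.249), Porcn (0.241) and Fzd1 (0.0895). There Fzd7 was separate from both of its neighbours, while Wls and Lrp6 overlapped, as did Lrp5 and Fzd5. Fzd4 and the genes after it each overlapped with the next. The order of genes that overlap is therefore not resolved in either genotype. With the longest transcript in place of the exon union, Wls ranked first in WT too.

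**Figure D4:**
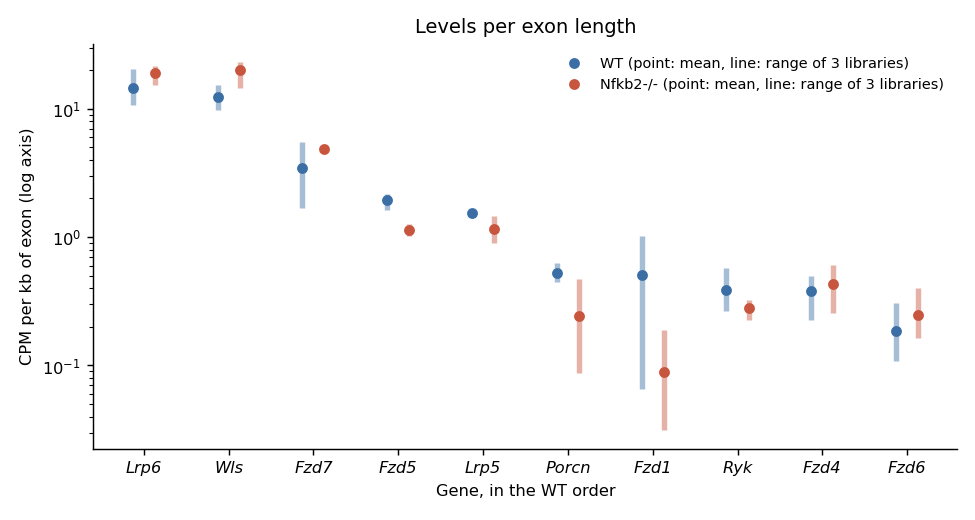
Level per exon length (CPM per kb, log axis) of each gene in WT (blue) and Nfkb2-/- (red) libraries, with the mean as a point and the range of 3 libraries as a line, in the WT order. Lrp6 and Wls stand above the other 8 genes in both genotypes.

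Fzd7 made up 45.2%, 66.6% and 36.9% of the summed Frizzled level per kilobase in WT and 61.3%, 69.9% and 74.5% in Nfkb2-/- replicates 1 to 3. Fzd5 made up 29.6%, 19.6% and 47.1% in WT and 12.2%, 18.8% and 17.4% in Nfkb2-/- libraries. The Fzd7 to Fzd5 ratio per kilobase was 1.53, 3.40 and 0.784 in WT and 5.03, 3.71 and 4.28 in Nfkb2-/- replicates 1 to 3. The genotypes did not overlap, and the two-sided exact permutation p was 0.1, the smallest possible. This ratio was 1 of 3 computed, all chosen after the values were seen, and its p adjusted over the 3 was 0.15 (Benjamini-Hochberg, exact permutation tests). The Lrp6 to Lrp5 ratio overlapped between genotypes (7.19 to 12.9 in WT and 10.5 to 24.0 in Nfkb2-/- libraries, exact permutation p = 0.2, adjusted 0.2). The Wls to Porcn ratio was 19.1 to 30.0 in WT and 30.7 to 261 in Nfkb2-/- libraries (exact permutation p = 0.1, adjusted 0.15), and its highest value rests on 8 Porcn counts.

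**Figure D5:**
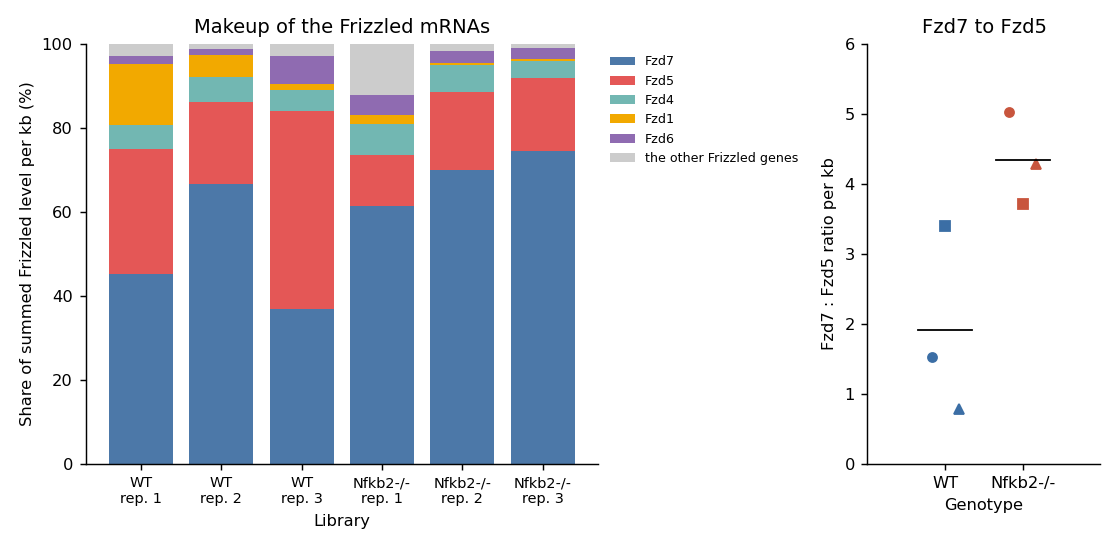
Share of each Frizzled gene in the summed Frizzled level per kb in each library (left, stacked bars from 0 to 100%) and the Fzd7 to Fzd5 ratio (right, points per library, line at the mean of 3). The ratio is 0.784 to 3.40 in WT and 3.71 to 5.03 in Nfkb2-/- libraries.

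The genes whose log2 CPM followed that of Fzd1 most closely over the 6 libraries, among 10646 genes averaging 5 CPM or more, were Ptgfrn (Pearson's r = 0.98), B3gnt8 (0.98) and Tmem104 (0.97). For Lrp6 they were Mtmr3 (0.997), Mak16 (0.99) and Ndufaf7 (0.99). These are the highest of all correlations computed, over 6 points that share their libraries, and they are given as a description.

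Of 87 other tested genes of the pathway in 10 lists, 1 passed the threshold, beside 1.14% of all genes, and 13 had an unadjusted p under 0.05, beside 17.1%. This was Tcf7, a TCF/LEF transcription factor and β-catenin target, at 84.0, 61.4 and 108 CPM in WT and 35.1, 30.0 and 35.1 CPM in Nfkb2-/- replicates 1 to 3 (log2 fold change -1.34, adjusted p = 0.0462, edgeR). The call was lost in 6 of 14 alternatives, namely with a replicate block (adjusted p = 0.0679) and without any single library other than WT replicate 2 (0.0503 to 0.222), with log2 fold changes from -1.52 to -1.12 over all 14. The other 2 abundant genes of the β-catenin target list, Ccnd1 and Cd44, had adjusted p-values of 0.0931 and 0.904, with Ccnd1 at 1.97 on the log2 scale. Among 14 tested of 19 Wnt ligands, none passed in edgeR, and 2 had an unadjusted p under 0.05. Wnt11 was the most abundant, at 42.9, 17.6 and 39.9 CPM in WT and 11.9, 10.5 and 10.9 CPM in Nfkb2-/- libraries, without overlap (log2 fold change -1.59, adjusted p = 0.0708, edgeR). Wnt4 and Wnt2b had adjusted p-values of 0.220 and 0.642. The 10 tested ligands under 1 CPM were all highest in Nfkb2-/- replicate 1.

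No gene passed in any of the 8 other groups of receptors and their regulators. Reck, a Wnt7 co-receptor, was lower without overlap at 6.03 and 3.16 mean CPM (adjusted p = 0.0959, edgeR), and Adgra2 and Vangl2 were at 0.646 and 0.956. Among turnover genes, the ligase gene Znrf3, which removes Frizzleds from the surface, had 7.74 and 4.10 mean CPM (adjusted p = 0.259), Rnf43 0.543 and Lgr4 0.770. Kremen1, which with Dkk proteins clears Lrp6, had 68.3 and 42.4 mean CPM (adjusted p = 0.227), and Frzb and Sfrp2 had adjusted p-values of 0.345 and 0.475. For ligand traffic, Tmed5 had 140 and 235 mean CPM (adjusted p = 0.206), Snx3 92.1 and 130 (0.129), Vps35 0.812 and Tmed10 0.982. Snx3 was higher without overlap. Among receptor handling genes, Caprin2 was higher without overlap at 29.2 and 44.9 mean CPM (adjusted p = 0.191), and Csnk1g1 had 0.542, Ccny 0.665 and Dab2 0.756. Dvl1, Dvl2 and Dvl3 had log2 fold changes of 0.28, 0.00 and -0.05. Fzd2, Fzd3 and Fzd8 had means under 1 CPM in both genotypes. Of other LRP family genes, Lrp8 was lower without overlap (log2 fold change -0.65, adjusted p = 0.0949, edgeR), while Lrp1 and Lrp12 had adjusted p-values of 0.446 and 0.722. Of the 38 of these pathway genes with a mean under 1 CPM, 36 were highest in Nfkb2-/- replicate 1.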

How the data were processed

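The authors deposited raw counts per Ensembl gene for each of the 6 libraries, and per the labels reads were aligned with HISAT2 to GRCm38/mm10. The counter, annotation and use of strand are not given in the sources used here. The deposited joined table held the same counts and was not used. Identifiers were named with GENCODE M21 (52073 of 56748 matched), and identifiers without a name, 1.01 to 1.75% of counts, were left out. Genes whose counts summed to 50 or more were tested with edgeR 4.0.16 (TMM, quasi-likelihood, no covariates) in R 4.3.3, with Benjamini-Hochberg adjustment over 21849 genes and a threshold of adjusted p under 0.05 and fold change over 1.2. Standard errors were derived from the log2 fold change and the F statistic. The fits were tested on simulated data with large changes in well-counted genes. That does not show how well they find small changes or changes in genes of low count. Alternatives were DESeq2 1.42.0, limma voom 3.58.1, other scalings and filters, a replicate block and each library left out. Sequences came from GRCm38 and RefSeq, and 6 of 10 members had a RefSeq promoter. Shared stretches were searched with blastn 2.17.0.

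Members and lists were chosen with earlier results of these data known. Named genes were all members, and of each pathway list any gene past the threshold, the 3 most abundant and the one with the lowest p, plus the 3 genes most correlated with Fzd1 and with Lrp6, and Nfkb2. A gene that this rule names is not reported here. Ratios, motifs and the plotted marker pairs were chosen after values were seen.

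Nothing in the labels says that equal replicate numbers mark a shared animal or day. The p-values set the genotype difference against the spread between these libraries.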

Additional observations from a re-analysis of the deposited data

How the results depend on the processing

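Of 138 values of the 10 genes' log2 fold changes under alternatives, 132 kept their direction and their side of the threshold, 3 passed where the main result did not, and 3 reversed. The reversals were Fzd4 without Nfkb2-/- replicate 1 and without WT replicate 3, and Fzd6 without Nfkb2-/- replicate 1; leaving out single libraries gave ranges of -0.18 to 0.45 for Fzd4 and -0.0852 to 1.005 for Fzd6. The number of members past the threshold was 1 with DESeq2 (Fzd5), 1 with no filter beyond 1 count (Fzd1), 3 at an unadjusted p under 0.05, and 0 to 1 with single libraries left out, against 0 in the main result. The filter of at least 10 counts in every library removed Fzd1 and Porcn. Members lower without overlap numbered 1 with total counts alone and 2 to 4 with single libraries left out, and members higher without overlap 1 and 0 to 3; Fzd1 and Porcn joined the lower ones without WT replicate 3 or Nfkb2-/- replicate 1, Fzd7, Lrp6 and Wls were higher without WT replicate 2, Wls without Nfkb2-/- replicate 1, and Fzd6 without WT replicate 3. The left-out counts were chosen after seeing the data. The share of all tested genes without overlap was not computed for these settings. Fewer libraries also separate more easily, so these counts are not read as differences of the members. Over all genes, 248 passed in the main result, 1890 with DESeq2, 488 with limma voom, 397 with filterByExpr, 1625 with no filter beyond 1 count, 459 with at least 10 counts in every library, and 0 to 1248 with single libraries left out, with 0 in 4 of these 6 fits (without WT replicate 1 or any Nfkb2-/- replicate), 270 without WT replicate 3 and 1248 without WT replicate 2. The median log2 fold change of all genes was 0.08, 0.17 with total counts alone and 0.60 with no filter. The cause of these differences was not tested. A replicate block gave 0 genes and 0 members past the threshold. Deviations of log2 CPM from the genotype mean correlated at 0.26, 0.15 and 0.02 between same-numbered libraries. Between WT and Nfkb2-/- libraries of unlike number the correlations ran from -0.24 to 0.16. The labels name no pairing, and the numbers were not taken as one. Low counts limited the precision of Fzd1 and Porcn, with 6 to 180 and 8 to 79 counts in a library. Fzd6, Ryk and Fzd4 were also low, with 17 to 65, 35 to 110 and 44 to 139 counts.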
